A study of Homo sapiens with 19 samples.

Results

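Gut-like epithelial cells are described here in human liver organoids kept on an orbital shaker. The members were chosen by the measured values themselves. A cell was a member when it held at least 500 detected genes, at most 20% mitochondrial counts, and at least 3 UMIs (unique transcript molecules) of LGALS4, PHGR1, CDH17 and TSPAN8 summed, making up at least 0.1% of its UMIs. Cells that also held at least 5 UMIs and 0.3% of AFP, AMBP, AGT, FGB and SERPINA1 summed, here called the hepatocyte gate, were left out. The rule found 1701 members among 85951 kept cells (1.98%) in 14 libraries, and 1499 of the members lay in the untreated, OA and OA control libraries. The organoids came from wild-type W01 cells, an established human pluripotent stem cell line distributed by WiCell, and all were collected on day 25. They formed 7 groups of 2 libraries: 1 was left untreated, 3 received TGFB1 (the cytokine TGF-β1, 10 ng/ml), PA (500 µM) or OA (500 µM), and each of these 3 had a separate control. The labels give 20 days of culture before 5 days of treatment, but do not say what PA and OA stand for or what the controls received, and the protocol text does not mention OA. All groups share 1 cell line, and the labels do not say whether replicates were separate cultures, so p-values measure only the spread between these libraries. The series title names inflammatory and fibrotic injury in fatty liver disease as its subject.

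The lining of the intestine is a single epithelial sheet renewed from stem cells at the crypt base. Its descendants become absorptive enterocytes, which carry a brush border and package dietary fat into lipoproteins, or secretory cells such as goblet, enteroendocrine and Paneth cells. The liver and the gut both arise from definitive endoderm, and the transcription factors CDX1 and CDX2 mark the intestinal branch. Of the genes that chose the members, LGALS4 encodes galectin-4, CDH17 the liver-intestine cadherin, TSPAN8 a membrane tetraspanin and PHGR1 a short histidine-rich and glycine-rich protein of the gut.

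Promoters of 1 gene of the rule and of 3 enterocyte genes that were higher with OA are printed. They show whether the windows carry 1 spelling of a CDX core or 1 spelling of a GATA core. The sequences are the 250 bases before the start of each gene from RefSeq (GRCh38.p14), all on the minus strand, written 5′ to 3′ and outside every GENCODE exon. They lie at chr19:38812946-38813195 for LGALS4, chr17:40885243-40885492 for KRT20, chr2:88128063-88128312 for FABP1 and chr4:119322139-119322388 for FABP2. Capitals mark a CDX core (TTTATG, or CATAAA on the other strand) or a GATA core (AGATAA, or TTATCT on the other strand). Other spellings of either core were not searched and are not marked.
LGALS4: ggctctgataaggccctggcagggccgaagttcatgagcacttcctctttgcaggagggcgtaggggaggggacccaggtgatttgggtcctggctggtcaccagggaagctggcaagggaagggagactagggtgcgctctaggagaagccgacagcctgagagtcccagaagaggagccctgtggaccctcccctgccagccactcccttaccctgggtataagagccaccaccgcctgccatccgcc
KRT20: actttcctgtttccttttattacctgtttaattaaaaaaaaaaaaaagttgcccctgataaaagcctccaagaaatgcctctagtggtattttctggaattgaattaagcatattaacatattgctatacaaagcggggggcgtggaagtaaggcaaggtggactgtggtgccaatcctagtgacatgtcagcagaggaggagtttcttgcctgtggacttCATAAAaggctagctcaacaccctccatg
FABP1: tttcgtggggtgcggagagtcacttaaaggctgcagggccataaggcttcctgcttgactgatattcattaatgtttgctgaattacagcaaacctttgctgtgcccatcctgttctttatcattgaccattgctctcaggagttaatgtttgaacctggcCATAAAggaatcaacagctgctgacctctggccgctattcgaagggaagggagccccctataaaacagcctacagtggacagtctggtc
FABP2: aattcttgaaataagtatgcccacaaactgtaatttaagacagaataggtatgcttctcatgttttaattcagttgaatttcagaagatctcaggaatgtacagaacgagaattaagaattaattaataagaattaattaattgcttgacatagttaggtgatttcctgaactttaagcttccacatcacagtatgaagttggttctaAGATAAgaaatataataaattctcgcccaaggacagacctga
KRT20, the intestinal keratin, held a CDX core 29 bases before its start, and FABP1, a cytosolic fatty acid binding protein, held one 89 bases before. FABP2, the intestinal fatty acid binding protein, held this GATA spelling 42 bases before its start. LGALS4 held neither of the searched spellings in this window, which does not show that it lacks a core in another spelling. The CDX core stood in 3386 of 35116 RefSeq promoter windows (9.64%), in 3 of the 17 matched genes of the absorptive enterocyte list (17.6%; KRT20, SI and FABP1) and in 1 of the 12 matched genes of the members' own profile (AGR2). The GATA core stood in 3219 windows (9.17%), in 2 of the 17 absorptive genes (11.8%; FABP2 and GUCA2A) and in 3 of the 12 profile genes (AGR2, SHH and PLAC8). A listed gene counted when any of its windows held the word, so shares of genes are not on the same footing as the shares of all windows. The 4 words share no position with each other in these windows, and a match is a description of letters.

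The 14 libraries held 7476533 to 59163747 UMIs over all deposited barcodes and 3089 to 9615 kept cells, and the members together held 25646619 UMIs. Their median depth per library ranged from 1863 UMIs in untreated replicate 2 to 26077 in OA control replicate 2. No more than 0.454% of the smaller library's barcodes were shared by any pair of the 14 libraries, and 0 members were. The exclusion decided most of what the gate held. Of 12054 cells that passed the gut gate, 10353 (85.9%) also passed the hepatocyte gate and are called double-gate cells below. They made up 54.7% and 45.7% of kept cells in the OA libraries, 26.8% and 11.3% in their controls, 18.7% and 32.9% in untreated organoids, 3.25% to 7.63% in the PA experiment and 0.467% to 1.83% in the TGFB1 experiment. Cells with collagen RNA were counted by a mesenchymal gate (at least 5 UMIs and 0.3% of COL1A1, COL1A2, COL3A1, DCN and LUM). That gate took 1.36% and 1.95% of kept cells with OA, 36.3% and 34.9% in its control, 47.7% and 28.1% in untreated organoids, 9.50% and 11.3% with TGFB1 against 3.57% and 3.76% in its control, and 1.76% and 5.04% with PA against 3.34% and 6.76% in its control.

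Near its limits the rule separated similar cells. Exactly 3 UMIs of the gate genes were held by 134 members, and 1346 kept cells held 2 and stayed outside. At the other limit, 153 members held 4 UMIs of the hepatocyte gate and 76 double-gate cells held 5, while 36 members held none. All 4 gut gate genes were detected in 618 members, 3 in 565, 2 in 404 and 1 in 114. Free RNA can put these genes into droplets of other cells, so the same rule was applied to mesenchymal-gate cells, which should lack them. Without the hepatocyte limit the gut gate took 5 of 3058 such cells in the TGFB1 and PA experiments, 6.74% and 9.84% in the untreated replicates, 5.26% and 1.48% in those of the OA control, and 4.76% and 3.17% with OA. The whole rule took 0 of 3058 in the TGFB1 and PA experiments, which allows a share of up to 0.0981%. It took 0.817% and 2.55% in the untreated replicates, and 2.22% and 0.371% in those of the OA control. With OA it took 2 of 42 (4.76%) and 1 of 63 cells (1.59%). In each of the 6 untreated, OA control and OA libraries that share was below the share of members in all kept cells, with 2 and 1 cells behind it with OA. The limit for the TGFB1 and PA experiments is above the lowest share of members there, 0.083%. Median depths were 3932 and 2023 UMIs in mesenchymal-gate cells and 6768.5 and 1863 in members of the untreated libraries. They were 4553 and 13815 against 6430 and 26077 in OA controls, and 6917 and 7311 against 12375 and 10869 with OA. In all, 129 members passed the mesenchymal gate as well.

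The gate genes themselves, given as a description because they chose the members, were uneven between experiments. Levels are CPM, a gene's UMIs scaled to a fixed total for the members of each library, with no correction for transcript length. PHGR1 stood at 10852 and 10087 CPM with OA, 2245 and 1788 in its control, 1102 and 1719 in untreated organoids, and 707 to 2135 in the PA experiment. It made up 75.3% and 78.0% of the members' gate UMIs with OA and 47.8% and 48.4% in the OA control. TSPAN8 stood at 2324 and 1860 CPM with OA and 1701 and 1439 in its control, and CDH17 at 327 and 284 against 222 and 213. LGALS4 (chromosome 19, 38801671 to 38812945) stood at 911 and 700 CPM with OA, 526 and 250 in its control, 95 and 147 in untreated organoids, 598 and 158 with PA, 50 and 375 in the PA control, and 29 and 31 in the TGFB1 control. In both TGFB1 libraries LGALS4 was at 0, and PHGR1 was at 0 in replicate 1 and 268 CPM in replicate 2. Those 5 and 11 cells held 35 and 43 UMIs of TSPAN8, 7 and 13 of CDH17 and 0 and 13 of PHGR1. They held KRT7, a keratin of ducts and other simple epithelia, at 521 and 371 CPM against 9.79 and 27.1 in their control. At 83133 UMIs in all, against 360092 in the control with 11 of LGALS4, the gut label could not be checked in the TGFB1 libraries, and their cells are called gate-positive cells.

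**Figure D1:**
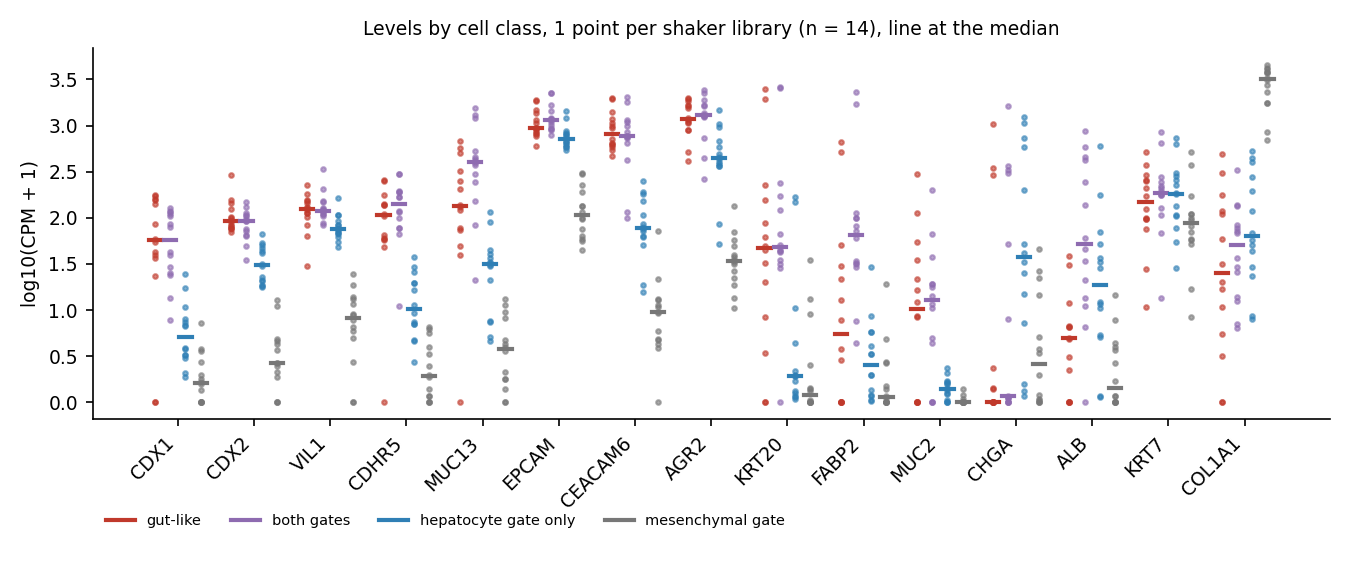
Levels of intestinal genes and of ALB, KRT7 and COL1A1 by cell class, as log10(CPM + 1), with 1 point per shaker library (n = 14) and a line at the median. Members (red) lie near double-gate cells (purple) for CDX1, CDX2 and CEACAM6 and above hepatocyte-gate cells outside the gut gate (blue), while mesenchymal-gate cells (grey) are lowest for these 3 genes and highest for COL1A1.

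Intestinal genes that the rule did not use were present in part. Over the 11 libraries with at least 20 members, CDX1 had a median of 84.3 CPM in members and 5.91 in hepatocyte-gate cells outside the gut gate. CDX2 had 89.1 and 30.8, KRT20 44.3 and 0.979, the mucin MUC13 130 and 31.5, and the brush border cadherin CDHR5 109 and 10.5. The microvillus protein villin, VIL1, differed less (127 and 76.7), as did the general epithelial gene EPCAM (934 and 677), and CLDN3 was 71.7 and 80.1. FABP2 was 2.76 and 2.35 and HNF4G 16.6 and 10.9. Medians of ALPI and SI of enterocytes, SPINK4 of goblet cells and DEFA5 of Paneth cells were at or near 0, while FABP1 of the absorptive list and TFF3 and AGR2 of the goblet list had medians of 2437, 1419 and 1551 CPM. Hepatocyte genes that the rule did not use were present in the members too, with APOA2 at 776 CPM (725 in hepatocyte-gate cells) and TTR at 622 (643), whereas ALB was at 5.55 (27.5).

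The genes that stood highest in members relative to the other kept cells of the same library are given without a test, since the gate chose the cells. CDX1, an intestinal transcription factor, was higher in 11 of 11 libraries (median 84.3 CPM in members, 26.2 in other cells, median log2 ratio 2.39). It was followed by the carcinoembryonic adhesion molecules CEACAM5 (188 and 52.2 CPM, 1.94) and CEACAM6 (947 and 157 CPM, 1.89) and by galectin-3, LGALS3 (1906 and 610 CPM, 1.64), each higher in 11 of 11. SLC26A2, a sulfate transporter, had a median log2 ratio of 1.33. AGR2, a protein disulfide isomerase of mucus-secreting cells, was high in both classes (1551 and 552 CPM, 1.23, higher in 9 of 11). SHH, a hedgehog ligand of endodermal epithelium, was 1.21 and higher in 11 of 11. Another 12 of the 20 genes ran from 1.14 (MMP1) to 1.41 (S100P). Over all 2559 genes with a median of at least 50 CPM in members, the median log2 ratio was 0.006. Against double-gate cells the same 20 genes lay between -0.49 (CDHR5) and 0.65 (SLC26A2), and against hepatocyte-gate cells between 0.86 (MMP1) and 4.86 (CEACAM5). Levels of these genes in members thus lay near those of the double-gate cells that the rule leaves out.

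Markers of other cell types were counted in the members of each library. The 12 mesenchymal genes summed to 35 to 92 CPM with OA, 546 to 600 in its control, 684 to 2560 in untreated organoids and 43 to 639 in the other 8 libraries. The defining genes PDGFRA, THY1 and POSTN were at 0 in most TGFB1 and PA libraries. Members there held only 34593 to 360742 UMIs per library, so these zeros cannot be told from low depth. The 3 genes had 46, 63 and 122 counts in 8145975 UMIs of the OA control, and 1, 0 and 0 counts in 12912496 UMIs with OA. The 12 hepatocyte genes summed to 7055 to 7985 CPM with OA and 1071 to 1914 in the OA control, the 12 gastric genes to 1074 to 1750 and 312 to 342, and the 10 ductal genes to 776 to 783 and 446 to 544. Immune genes reached 61 to 79 CPM with OA and 21 to 30 in the OA control, with PTPRC and CD14 at 0 in all 14 libraries and CD68 holding most of the sum in the OA experiment. Endothelial genes stayed at 12 CPM or less with CDH5 at 0 throughout, neural genes ranged from 0 to 434 CPM with SOX10 and ELAVL3 at 0, and basal and squamous genes from 0 to 62 CPM with TP63 at 0 in 13 of the 14 libraries.

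The share of members among kept cells was compared for each treatment with its own control. With OA the members made up 9.13% of kept cells (95% exact Clopper-Pearson interval 8.14 to 10.2, 282 cells) in replicate 1 and 8.41% (7.47 to 9.42, 271 cells) in replicate 2. In the OA control they made up 6.07% (5.45 to 6.73, 331 cells) and 3.46% (2.84 to 4.16, 107 cells). Both OA libraries lay above both control libraries, with group means of 8.77% ± 0.510 and 4.76% ± 1.85 (SD, n = 2 each) and a difference of 4.01 percentage points. The exact permutation test, two-sided, gave p = 0.333, the smallest that 2 against 2 libraries allow, so no share comparison here can pass 0.05. With double-gate cells kept in, the difference was 35.2 points (63.9% and 54.1% against 32.9% and 14.7%). Among cells with at least 1000 UMIs, thinned to that depth, it was 8.24 points. There the minimums of 3 and 5 UMIs, not the percentages, set the gut and hepatocyte gates. The OA libraries then held 460 and 397 members against 282 and 271 before, so the gates differ from the main ones. With cells thinned to 3000 UMIs, where the percentages applied, the difference was 4.84 points. The mesenchymal share given above fell in the same libraries and is part of the same total. Its part in the difference was not tested, nor was that of the PHGR1 level given above, and these intervals cover counting error only.

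PA and TGFB1 shares were an order of magnitude lower. With PA the members made up 0.313% (0.201 to 0.466, 24 cells) and 0.570% (0.419 to 0.757, 47 cells), and in the PA control 0.468% (0.262 to 0.771, 15 cells) and 0.453% (0.296 to 0.663, 26 cells). The groups overlapped, with means of 0.441% ± 0.181 and 0.460% ± 0.011 (SD, n = 2 each; exact permutation p = 1). The difference of -0.0189 points became 0.109 without PA replicate 1 and -0.554 with double-gate cells kept in. Gate-positive cells made up 0.083% (0.027 to 0.194, 5 cells) and 0.159% (0.0796 to 0.285, 11 cells) with TGFB1 and 0.406% (0.289 to 0.554, 39 cells) and 0.412% (0.287 to 0.572, 35 cells) in its control. Both TGFB1 libraries lay below both controls, with means of 0.121% ± 0.054 and 0.409% ± 0.004 (SD, n = 2 each) and a difference of -0.287 points (exact permutation p = 0.333). That difference was -0.0371 points under a stricter gate of 5 UMIs and 0.2%, and -0.863 with double-gate cells kept in. With cells thinned to 1000 and 3000 UMIs, and cells below each depth left out, it was -0.171 and -0.828. At 3000 UMIs only 884 of 9615 kept cells of TGFB1 control replicate 1 remained, 13 of them gate-positive. With TGFB1, 5101 of 6002 and 6066 of 6904 remained, so the cells compared at that depth are not the same selection. Untreated organoids held 2.24% (1.95 to 2.56, 212 cells) and 5.17% (4.61 to 5.78, 296 cells), a range that the PA and TGFB1 controls did not reach. Those controls belong to other experiments, with other software headers, so experiment and share cannot be told apart. Median depths of members overlapped. They were 2541 and 6082 UMIs in the TGFB1 control, 2354 and 6404.5 in the PA control, and 6768.5 and 1863 in untreated organoids.

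**Figure D2:**
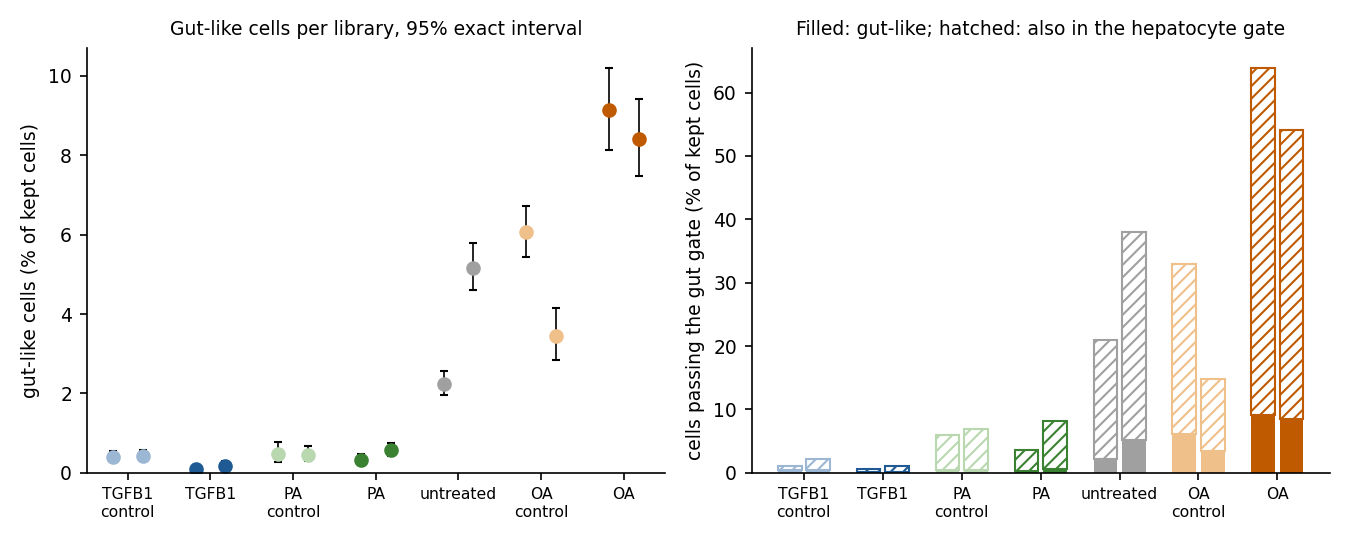
Members per shaker library as a percent of kept cells with 95% exact intervals (left), and all cells passing the gut gate, with the hatched part also in the hepatocyte gate (right). The OA libraries, at 9.13% and 8.41%, sit above their controls at 6.07% and 3.46%, and in every library the hatched part exceeds the filled one.

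Within the members, subsets were counted by small marker sums (at least 3 UMIs and 0.1% of UMIs). Cells scored absorptive, by the sum of KRT20, SI, FABP2, ALPI, MEP1A and APOA4, made up 62.4% (176 cells) and 57.2% (155 cells) of members with OA. In the OA control they made up 0.91% (3 cells) and 0% (0 of 107 cells, which allows a share of up to 2.80%). The groups did not overlap and differed by 59.4 points (exact permutation p = 0.333). The other 10 libraries held 0% to 13.3%, from at most 5 cells each. After thinning every member with at least 1000 UMIs to that depth, the OA and control shares were 44.1% and 37.8% against 0.64% and 0%. Mesenchymal-gate cells scored absorptive at 0% and 4.76% with OA and at 0% and 0% in the control. Of the genes in the absorptive score, KRT20, FABP2 and APOA4 were called higher with OA in the gene test below. SI and MEP1A were not, and ALPI had only 16 counts over both OA libraries. The part of each gene in the score was not tested. Secretory cells made up 23.8% and 33.2% with OA and 57.4% and 30.8% in the control, and the groups overlapped (difference -15.6 points, exact permutation p = 0.667). Enteroendocrine cells were few: 4 of the 26 members of PA control replicate 2 (15.4%), 3 in PA replicate 2 (6.38%), 5 in untreated replicate 1 (2.36%), 1 in OA replicate 1 (0.35%) and 0 elsewhere. CHGA, the granule protein chromogranin A, reached 1046 CPM in PA control replicate 2.

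**Figure D3:**
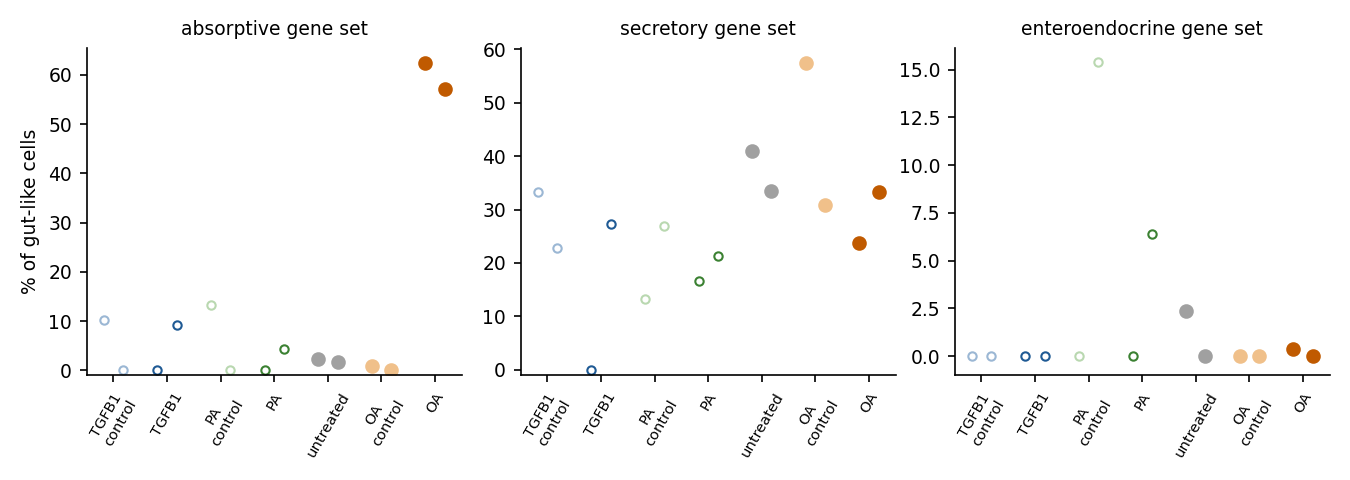
Percent of members scored absorptive, secretory and enteroendocrine in each shaker library, 1 point per library, open where the library held under 50 members. The absorptive set stands at 62.4% and 57.2% in the OA libraries and at 0.91% and 0% in their controls, while the secretory set overlaps between these groups.

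Gene expression in members was tested on UMI counts summed per library, with edgeR's quasi-likelihood test and Benjamini-Hochberg adjustment over all genes tested. Between OA and its control 3545 of 12592 genes passed 0.05 (28.2%), with 1872 higher (14.9%) and 1673 lower (13.3%). Of the genes tested in each list, 13 of 15 for absorptive enterocytes, 7 of 8 for lipoprotein assembly and 17 of 20 for NF-kB and chemokines were higher with OA. Lower were 6 of 8 Paneth and crypt stem genes, 10 of 12 mesenchymal genes and 18 of 18 cell cycle genes. Leaving out any 1 of the 4 libraries lowered the count to between 994 (without OA replicate 1) and 1367 (without OA replicate 2), and thinning each member to 3000 UMIs lowered it to 783. Over all tested genes the median log2 fold change was -0.0281, and with another scaling (RLE size factors) it was -0.127, with 1634 genes higher and 2026 lower.

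The 10 genes with the largest rises included APOA4 and APOC3 of the lipoprotein list, FABP2 and KRT20 of the absorptive list, FABP6 of the bile acid list and PSCA of the gastric list. PSCA, a cell surface antigen of stomach and other epithelia, stood at 50.7 and 11 CPM with OA and had 1 count over both controls, a ratio of 239 with a counting interval of 42.7 to 9468. APOA4 (chromosome 11, 116820700 to 116823304), an apolipoprotein that enterocytes secrete on chylomicrons, stood at 605 and 1077 CPM with OA and at 1.43 and 0.306 in the control. Untreated libraries held 61.5 and 0.698 CPM. The log2 fold change was 9.73 with an SE of 1.26, and the edgeR adjusted p was 4.71e-05. FABP2 (chromosome 4, 119317250 to 119322138) stood at 670 and 512 CPM with OA and at 1.84 and 2.76 in the control (8.06, SE 0.50, edgeR adjusted p 2.25e-07). FABP6 (chromosome 5, 160187367 to 160238735), the ileal bile acid binding protein, stood at 259 and 103 CPM against 0.41 and 1.53 (7.65, SE 0.56, edgeR adjusted p 5.33e-07). For each of the 3 genes both OA libraries lay far above both controls. APOC3, an inhibitor of lipoprotein lipase, rose from 0.82 and 1.22 to 57.6 and 88.5 CPM.

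The absorptive enterocyte list as a whole followed. Of its 20 genes 15 had counts enough to be tested, and 13 were higher, 0 lower, with a median log2 fold change of 2.37. KRT20 (chromosome 17, 40875889 to 40885242), whose promoter is printed above, stood at 2517 and 1937 CPM with OA and at 31.2 and 2.45 in the control (7.0, SE 1.07, edgeR adjusted p 0.000186). Untreated replicates held it at 7.42 and 154 CPM, so the untreated and control groups together spanned a wide range beneath OA. FABP1 rose from 2628 and 2303 to 8662 and 7498 CPM, the chloride exchanger SLC26A3 from 9.84 and 6.43 to 155 and 131, and the guanylin gene GUCA2A from 17.4 and 11.6 to 919 and 318. The peptidase DPP4 rose from 42.0 and 32.8 to 198 and 142 CPM and lactase, LCT, from 3.48 and 1.22 to 25.6 and 20.0. Sucrase-isomaltase, SI, did not pass (0.615 and 1.22 CPM in the control, 1.17 and 2.16 with OA), nor did the meprin subunit MEP1A (45.3 and 26.6 in the control, 52.6 and 48.6 with OA). CEACAM7, an adhesion molecule of the differentiated surface epithelium, is outside the list and rose from 5.94 and 7.65 to 678 and 549 CPM. Without any 1 of the 4 libraries 8 or 9 of the list's genes were called, and in other kept cells of the same libraries 20 of 20 were higher, with a median of 4.02, where 18.6% of all genes tested were.

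The brush border list had 8 of 11 genes higher and 0 lower (median log2 fold change 1.07), and 2 or 3 of the 8 were called without any 1 library. Villin, VIL1, did not pass (112 and 101 CPM in the control, 131 and 120 with OA). Goblet genes had 2 of 10 higher and 0 lower, near the 14.9% of all genes called higher. MUC13 rose from 48.8 and 38.9 to 678 and 572 CPM, and the secreted mucin MUC2 from 7.38 and 15.6 to 34.3 and 53.6, a call lost without any 1 library. TFF3, the goblet trefoil peptide, did not pass (2155 and 1378 CPM in the control, 1228 and 1206 with OA). Gastric and foregut genes had 6 of 8 higher and 0 lower (median 2.35), 2 to 4 without any 1 library, with the trefoil peptides TFF1 from 181 and 180 to 762 and 473 CPM and TFF2 from 59.4 and 95.8 to 777 and 464. The TFF1 call was lost without OA replicate 1. The enteroendocrine list had 0 of 5 called.

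The Paneth and crypt stem list moved in both directions, with 1 of 8 genes higher and 6 lower (median log2 fold change -1.85). LGR5, the receptor that marks crypt stem cells, fell from 15.2 and 9.49 to 2.51 and 0.432 CPM (-3.06), and ASCL2, a stem cell transcription factor, fell from 5.94 and 4.29 to 0.335 and 0.288 (-3.81). EPHB2, a receptor of the crypt, fell from 30.7 and 31.5 to 7.70 and 9.65 CPM (-1.78). OLFM4, a secreted crypt protein, was the 1 gene that rose, from 15.2 and 24.2 to 117 and 74.8 CPM (2.36). REG3A (chromosome 2, 79157003 to 79159753), an antimicrobial lectin outside the list, fell from 14.8 and 32.8 to 2.01 and 1.44 CPM (-3.66, SE 0.53, edgeR adjusted p 0.000191). Untreated libraries held it at 5.83 and 0 CPM, a range that overlaps OA. With any 1 library left out, 1 or 2 genes of the list were called lower. With members thinned to 3000 UMIs 4 of its genes were tested and 0 were called lower by edgeR, with EPHB2 at -1.32 (adjusted p 0.142).

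Cell cycle genes were lower throughout: 18 of 18 passed, with a median log2 fold change of -2.08, and 14 to 18 passed without any 1 library. Thymidylate synthase, TYMS, fell from 107 and 116 to 11.7 and 16.3 CPM (-2.93), and the proliferation antigen MKI67 from 63.3 and 93.1 to 14.4 and 26.5 (-1.85). The median in other kept cells was -1.42. The intestinal identity factors changed little. CDX1 was 156 and 161 CPM in the control and 176 and 170 with OA, CDX2 80.5 and 89.1 in the control and 77.3 and 74.6 with OA, and HNF4A 76.2 and 56.9 in the control and 66.8 and 66.7 with OA, and none of the 3 passed. Of 20 gut transcription factors, HNF4G, KLF4 and EHF were higher and FOXA2 lower, shares no larger than about the 14.9% and 13.3% of all genes. HNF4G rose from 16.2 and 11.6 to 36.5 and 30.8 CPM, and its call was lost without OA control replicate 2 or OA replicate 1. With members thinned to 3000 UMIs the HNF4G log2 fold change was 0.47 (edgeR adjusted p 0.616), and the FOXA2 call was lost too (edgeR adjusted p 0.256). The KLF4 call was lost without any 1 of the 4 libraries and with members thinned to 3000 UMIs.

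**Figure D4:**
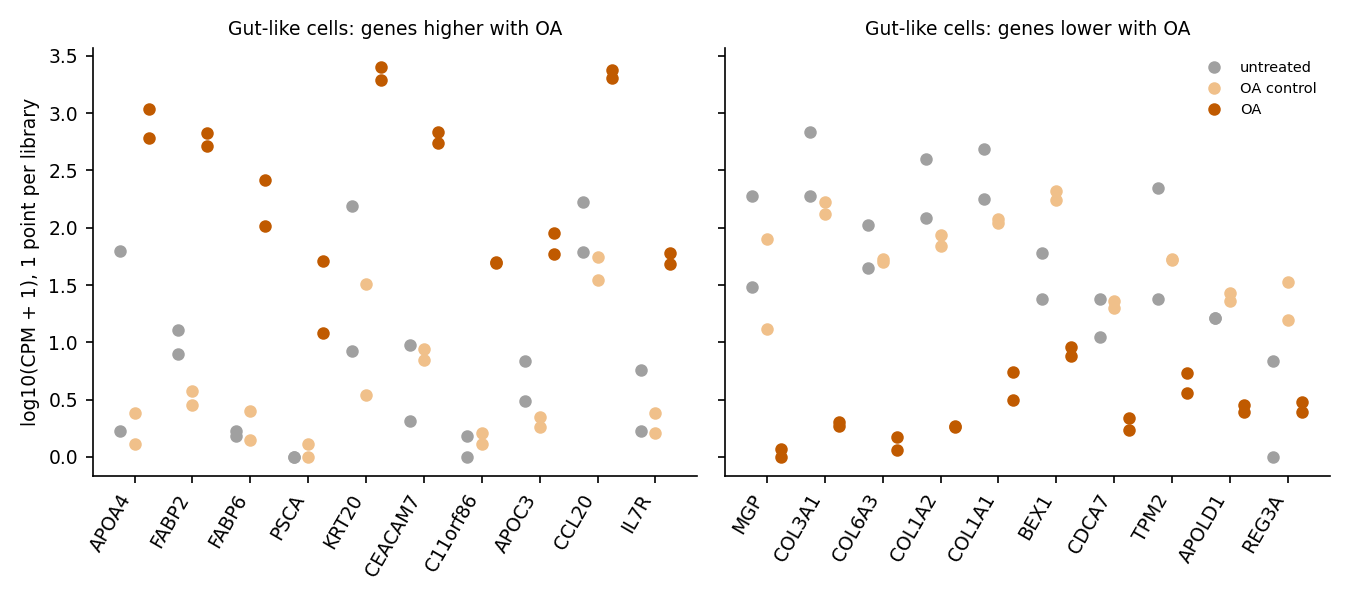
Levels in members of the genes named for OA, higher on one panel and lower on the other, as log10(CPM + 1) with 1 point per library for OA, its control and untreated organoids. OA and control points do not overlap for any gene shown, as the naming rule requires, and KRT20 spreads from 7.42 to 154 CPM between the untreated libraries.

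Fat metabolism was covered by 5 lists. The fatty acid oxidation and PPAR target list had 12 of 18 genes higher and 0 lower (median log2 fold change 1.21), and 5 to 7 were called without any 1 library. CREB3L3, a membrane-bound transcription factor of fasting metabolism, rose from 8.40 and 9.18 to 171 and 162 CPM (4.29), and CPT1A, the carnitine transferase that admits fatty acids to mitochondria, from 10.5 and 6.73 to 83.0 and 69.0 (3.14). Lipid droplet and triglyceride genes had 8 of 11 higher and 1 lower (1.88), with the droplet coat protein PLIN2 from 162 and 186 to 816 and 727 CPM (2.2), the acyl-CoA synthetase ACSL5 from 18.4 and 16.5 to 188 and 178 (3.42), and HILPDA, a lipase inhibitor, falling from 18.0 and 22.7 to 5.86 and 4.03 (-1.97). Lipoprotein assembly had 7 of 8 higher (2.40). APOB, the structural protein of chylomicrons, rose from 50.2 and 31.8 to 311 and 311 CPM (2.95) and MTTP, which loads lipid onto it, from 63.3 and 67.3 to 224 and 232 (1.86), while APOE did not pass (210 and 197 in the control, 223 and 221 with OA). Bile acid and sterol transport had 5 of 6 higher (2.08), among them the basolateral transporter subunit SLC51B (2.25 and 3.06 to 30.0 and 14.3 CPM) and the bile acid receptor NR1H4 (17.2 and 18.4 to 64.8 and 58.4). Cholesterol synthesis had 3 of 16 higher and 0 lower (0.41), a share near the 14.9% of all genes called higher, and 2 higher and 1 lower with RLE size factors. Its higher genes included CYP51A1 from 158 and 149 to 348 and 348 CPM. The CYP51A1 call was lost without OA control replicate 2 or OA replicate 1, and those of SC5D and MSMO1 without any 1 library.

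Chemokines and NF-kB targets were higher as well, with 17 of 20 genes called higher, 0 lower and a median log2 fold change of 2.58. CCL20 (chromosome 2, 227805739 to 227817564), the chemokine that draws CCR6-bearing cells to gut epithelium, stood at 2020 and 2396 CPM with OA and at 33.8 and 54.2 in the control (5.72, SE 0.81, edgeR adjusted p 0.000102). CXCL8 stood at 97.4 and 131 CPM against 1.84 and 11.3 (4.30), CXCL1 at 218 and 252 against 3.89 and 22.0 (4.33), and the survival factor BIRC3 at 96.9 and 73.5 against 1.84 and 6.43 (4.52). CCL2, LCN2 and LTB did not pass. IL7R (chromosome 5, 35852695 to 35879603), the interleukin-7 receptor chain, outside the list, rose from 1.43 and 0.612 to 59.1 and 47.1 CPM (5.57, SE 0.42, edgeR adjusted p 4.81e-07).

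Other cell types' genes moved in the same contrast. Mesenchymal genes had 10 of 12 lower and 0 higher, with a median log2 fold change of -5.63, or -5.25 with the 2 genes that were at 0 with OA set to a floor of 3 counts over the group. COL3A1 (chromosome 2, 188974373 to 189012746), a fibrillar collagen, fell from 130 and 167 to 1.00 and 0.865 CPM (-7.18, SE 0.58), and COL1A1 from 118 and 108 to 4.52 and 2.16 (-5.03). MGP, a matrix protein, was left with 1 count over both OA libraries against 78.9 and 11.9 CPM. When members in the mesenchymal gate were left out, 8 of 10 such genes were lower and 1 higher. The levels moved with the share of mesenchymal-gate cells in the same libraries, and the part of RNA from other cells was not tested. Hepatocyte genes had 3 of 6 higher, with APOA2 from 1184 and 673 to 5981 and 7083 CPM and ALB from 5.74 and 1.22 to 29.6 and 38.0. The APOA2 call was lost without OA control replicate 2. The call of TTR, the third of the higher genes, was lost without any 1 of the 4 libraries, with DESeq2, with the stricter gate and with the replicate block. Double-gate cells, which carry those genes, made up a larger share of the same libraries, and their part was not tested. Immune genes had 2 of 2 tested higher, CD68 from 28.5 and 18.7 to 73.7 and 56.8 CPM and CD3D from 1.23 and 1.84 to 4.86 and 4.61. The CD3D call was lost with DESeq2 and the replicate block, and with any 1 library left out CD3D missed the low-count filter. PECAM1 (endothelial, 1.23 and 1.22 to 3.35 and 4.76 CPM) and STMN2 (neural, 3.89 and 2.14 to 24.9 and 4.03) also passed. The PECAM1 call was lost without any 1 library, and the STMN2 call without any but OA replicate 2. Among the named genes that fell, BEX1 went from 173 and 210 to 6.53 and 8.07 CPM (-4.64, SE 0.41, edgeR adjusted p 1.09e-06).

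**Figure D5:**
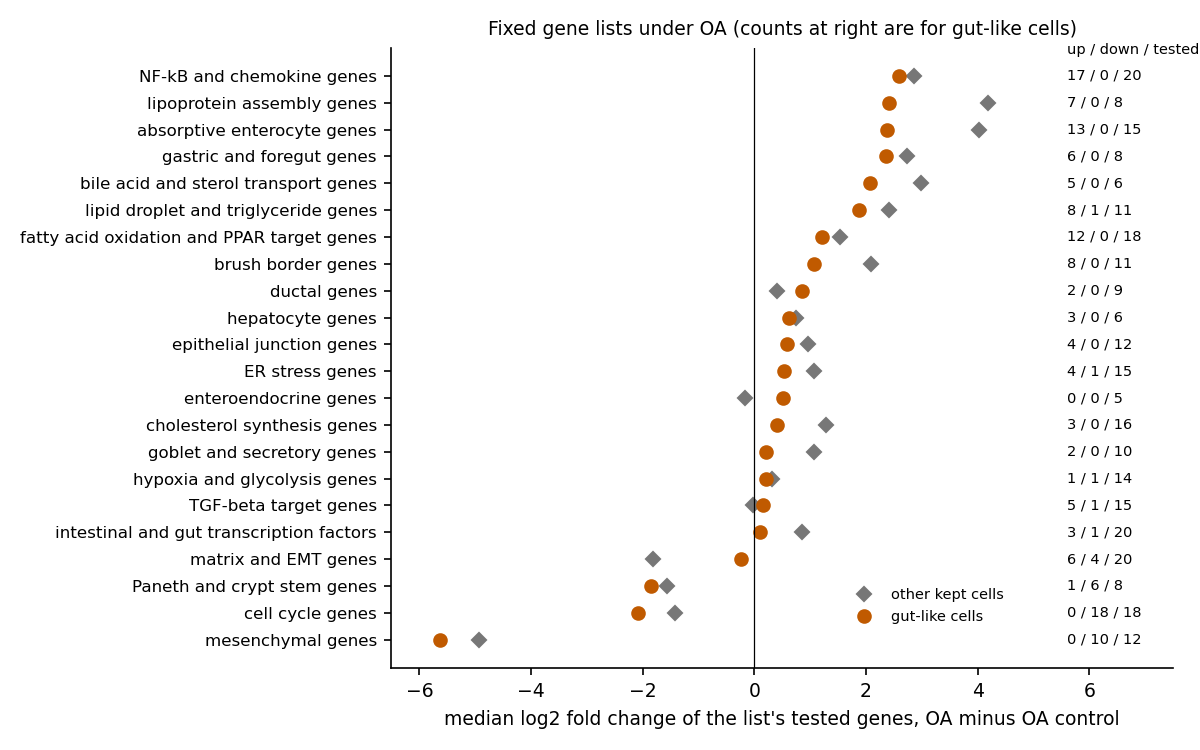
Median log2 fold change of the tested genes of each fixed list, OA minus OA control, in members (circles) and in other kept cells (diamonds), with the counts of genes called higher and lower in members at the right. Members run from -5.63 for mesenchymal genes to 2.58 for NF-kB and chemokine genes, and the absorptive list is at 2.37 in members and 4.02 in other cells. Each class had its own low-count filter, so the medians of a list can rest on different genes. Of the absorptive list, 15 genes were tested in members and more in other cells.

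Whether OA acted differently in members than in the other kept cells was tested as a difference of effects within libraries. Of 17511 genes 952 differed (5.44%), 265 with a more positive log2 effect in members (1.51%) and 687 with a more negative one (3.92%). With RLE size factors the split was 353 and 456, and without OA control replicate 2 the count was 115. The other cells changed their makeup between the groups, so the same test was run against single gates: 144 of 15586 genes differed from double-gate cells (0.924%), and 1655 of 16183 from hepatocyte-gate cells (10.2%). Of the lists, 7 of 19 absorptive genes had a more negative log2 effect in members than in other cells (FABP1, MEP1A, ANPEP, DPP4, LCT, CEACAM5 and CEACAM6), as did 6 of 11 brush border genes, 13 of 16 cholesterol synthesis genes and 10 of 20 gut transcription factors. The other cells include double-gate cells, which hold gut gate RNA by the rule and made up a larger share with OA, and their part in these differences was not tested.

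The 6 genes that lead this test in either direction did not share a single pattern. IL7R rose in other cells too, from 4.89 and 5.17 to 20.2 and 19.0 CPM, and its effect in members was more positive by 3.37 (log2, SE 0.406, edgeR adjusted p 0.000295). CXCL14 (chromosome 5, 135570679 to 135579279), an epithelial chemokine, went from 39.3 and 95.2 to 180 and 176 CPM in members and from 171 and 286 to 54.6 and 51.9 in other cells, a difference of 3.34 (SE 0.227, edgeR adjusted p 3.65e-07). COL5A1 (chromosome 9, 134641803 to 134844843), a minor fibrillar collagen, went from 19.9 and 39.2 to 28.6 and 37.2 CPM in members and from 144 and 245 to 9.67 and 11 in other cells (4.17, SE 0.211, edgeR adjusted p 1.45e-10). REG3A fell in members and went from 14.5 and 16.8 CPM in the control to 17.9 and 12.0 with OA in other cells (-3.87, SE 0.474, edgeR adjusted p 0.000309). LCN2 (chromosome 9, 128149071 to 128153453), an iron-binding defence protein, went from 0.41 and 36.7 CPM in the control to 15.1 and 37.2 with OA in members, and from 5.76 and 3.95 to 87.1 and 125 in other cells (-3.87, SE 0.789, edgeR adjusted p 0.00682). Its difference became 1.44 without OA control replicate 2. COL3A1 went from 951 and 1400 to 53.5 and 42.3 CPM in other cells (-2.95, SE 0.419, edgeR adjusted p 0.000426). Against double-gate cells all 6 kept their sign and passed, with COL5A1 at 1.80, IL7R at 3.02 and CXCL14 at 2.93.

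PA changed 1 of 6338 tested genes in members (0.0158%) once libraries with at least 5 members were admitted, a lower minimum than planned and added after the member counts were seen. That gene was CA4 (chromosome 17, 60149942 to 60170899), a membrane-anchored carbonic anhydrase of the gut surface. It stood at 299 and 474 CPM with PA and at 75.0 and 55.9 in the control (2.85, SE 0.47, edgeR adjusted p 0.0444), from 27 and 171 counts against 3 and 14. The call was lost without PA control replicate 1 (edgeR adjusted p 0.198), PA control replicate 2 (0.849) or PA replicate 2 (0.889), and held without PA replicate 1 (0.0023), where 5 genes passed. CA4 was also higher with OA (247 and 244 against 13.7 and 10.4 CPM, 4.37, edgeR adjusted p 1.06e-06), against a control of its own. CXCL14 was at 255 and 233 CPM with PA and 0 in both PA controls, at least 23.0-fold higher against a floor of 3 counts over the group (edgeR adjusted p 0.165). TFF1 (454 and 286 against 25.0 and 75.9 CPM), TFF2 (210 and 632 against 75.0 and 51.9) and PLIN2 (399 and 463 against 125 and 172) lay higher in both PA libraries and did not pass. No gene of the fixed lists passed for PA, and 329 genes had an unadjusted p under 0.05. The difference of PA effects between members and other kept cells was tested in the libraries with at least 20 members, where the control is replicate 2 alone and is assumed to vary like the other groups. Of 17511 genes 3 differed (0.0171%). CXCL14 stood in other cells at 127 and 158 CPM with PA and 203 and 201 in the control, and differed from its effect in members (edgeR adjusted p 0.00164). SCT (chromosome 11, 626309 to 627181), the gut hormone secretin, was at 33.2 and 80.4 CPM with PA and 691 in control replicate 2, and at 36.2 and 34.9 against 22.0 in other cells (-3.99, SE 0.387, edgeR adjusted p 6.4e-05). DLK1, a membrane protein of immature liver cells, was at 22.2 and 47.1 CPM with PA and 331 in control replicate 2 (-3.19, SE 0.455, edgeR adjusted p 0.00816), and its call was lost without either PA library. Control replicate 1, outside that fit, had 1 count of each (25.0 CPM), and with it included the PA and control levels of SCT and DLK1 in members overlap (differences of -3.35 and -2.85, edgeR adjusted p 0.0129 and 0.0336). Cells scored enteroendocrine made up 4 of the 26 members of control replicate 2 (15.4%), 0 of 15 in control replicate 1, and 0 of 24 and 3 of 47 with PA, and CHGA stood at 1046 CPM in control replicate 2 and 0 and 347 with PA. The part of these cells in the SCT and DLK1 differences was not tested.

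In the gate-positive cells of the TGFB1 experiment edgeR called 0 of 6338 genes (0.0%), while DESeq2 called 91, and 631 lay under 0.05 by edgeR before adjustment. These counts rest on 5 and 11 cells with TGFB1, and leaving out TGFB1 control replicate 2 gave 4 calls. KRT7 had a log2 fold change of 3.97 and an edgeR adjusted p of 0.179. The difference of effects was tested with at least 5 members per library, since no TGFB1 library held 20, and 65 of 15521 genes differed (0.419%), 3 with a more positive log2 effect in gate-positive cells (0.0193%) and 62 with a more negative one (0.399%). Over all genes the median difference was -0.55. The count was 0 without TGFB1 control replicate 2 (853 at an unadjusted p under 0.05), 1 without TGFB1 replicate 1 and 23 without TGFB1 replicate 2. FABP1, an intracellular fatty acid carrier of liver and gut, was at 434 and 1401 CPM with TGFB1 and 2437 and 616 in the control in gate-positive cells, and at 12.3 and 11.3 against 277 and 289 in other cells (3.63, SE 0.545, edgeR adjusted p 0.00413). Its call was lost without TGFB1 control replicate 2 or TGFB1 replicate 2.

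The OA control itself was set against untreated organoids, since both lack OA. Of 12592 genes 159 differed (1.26%), 59 higher (0.469%) and 100 lower (0.794%) in the OA control. Leaving out the second untreated library raised the count to 1568, leaving out the first gave 188, and leaving out either OA control library gave 0. Untreated replicate 2 had the shallowest members, with a median of 1863 UMIs.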

How the data were processed

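Single-cell RNA was measured with 10x Genomics 3′ chemistry in 14 shaker libraries. The authors deposited raw UMI counts per gene and barcode, whole numbers with no normalization, per the file headers and values. The submitters' processing notes name bcl2fastq, Cell Ranger 3.0.2, Scanpy and GRCh38. Cell Ranger 6.0.2 stands in the matrix headers of the untreated libraries and the OA experiment. The 32732 gene identifiers present in every shaker matrix were used. The members, gene lists and tests were chosen with earlier results of these data known.

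Cells passing the rule were summed per library, and libraries were the replicates. Genes were tested in edgeR 4.0.16 (R 4.3.3; TMM, filterByExpr, quasi-likelihood) with the 9 gate genes left out. The fit took the 11 libraries with at least 20 members, in 6 groups with 5 residual degrees of freedom, and the PA control kept 1 library there. PA and TGFB1 were fitted with at least 5 members per library, as was the difference of TGFB1 effects, while that of PA effects used the 11 libraries. DESeq2 1.42.0 was an alternative. The difference of effects had library as a term and edgeR's newer estimate of the spread, a choice made after the older one gave an infinite prior. Shares were compared with exact permutation tests (scipy 1.17.1). Scrublet (scanpy 1.11.5) marked at most 0.129% of cells by its own threshold, so it did not work as a filter. Doublets were kept, and the top 0.8% of scores per 1000 barcodes (115 members) were removed as an alternative. Profile ratios used a pseudocount of 1 CPM and a minimum of 50 CPM.

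Named genes were the 20 highest profile genes, the 10 largest changes each way that passed 0.05 without overlap of libraries and with at least 20 CPM in the higher group, up to 4 genes of each list by p, and the 3 largest differences of effect each way. Others in the text were named after their values were seen. Gene positions are from GENCODE v44 (GRCh38). The fits were also run on simulated counts with the same spread for all genes and no library effect. Such counts are simpler than these data and do not measure the error of the fits here.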

Additional observations from a re-analysis of the deposited data

Results flagged for a closer look

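In 6 genes the OA effect in members differed from the OA effect in the other kept cells of the same libraries by edgeR's test of the difference. On the log2 scale the effect in members was more positive by 4.17 for COL5A1, 3.37 for IL7R and 3.34 for CXCL14. It was more negative in members for REG3A (-3.87), LCN2 (-3.87) and COL3A1 (-2.95). COL5A1 was 556 and 676 CPM in the mesenchymal-gate cells of the OA control and 236 and 315 in those with OA, and these cells made up 36.3% and 34.9% of kept cells in the control and 1.36% and 1.95% with OA. With mesenchymal-gate cells left out of both classes 359 genes differed, and the calls of COL5A1, COL3A1 and CXCL14 held. How much of these differences those cells make up was not tested. Against hepatocyte-gate cells outside the gut gate, LCN2 was at -1.57 (edgeR adjusted p 0.30) and COL3A1 at -1.67 (edgeR adjusted p 0.319), and neither passed.

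The PA effect differed between members and other kept cells in 3 genes by the same edgeR test, with 1 PA control library in the fit. The log2 difference was -3.99 for SCT and -3.19 for DLK1. For CXCL14 it was fitted at 15.6 with 0 counts in the members of the PA control, and that value is no bound. For TGFB1, with 5 and 11 gate-positive cells, the named differences were 3.63 for FABP1, 3.44 for NR0B2, 1.21 for SPINK1 and -3.21 for EIF4EBP1. TMEM9B and RB1CC1 were fitted at -13.6 and -13.4 with 0 counts in the gate-positive cells of both TGFB1 libraries, so these values are no bounds either. Leaving out any 1 of the 4 libraries ended the calls of SPINK1, TMEM9B and RB1CC1, and leaving out TGFB1 control replicate 2 ended all 6.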

How the results depend on the processing

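Shares kept their direction for OA (2.70 to 5.31 points without 1 library) and TGFB1 (-0.325 to -0.249), but 2 against 2 libraries cannot pass 0.05. They also kept it under a stricter gate, both thinnings, a 10% mitochondrial limit and removal of doublets or mesenchymal-gate members. When those members were removed, all mesenchymal-gate cells stayed in the total of kept cells, so the part of the mesenchymal share was not tested. Both thinnings left out cells below the target depth. The PA difference of -0.0189 points was -0.554 with double-gate cells kept and -0.147 to 0.109 without 1 library. It was 0.0377 at 10% mitochondrial counts and 0.0798 with cells thinned to 3000 UMIs. At that depth 526 of 3205 kept cells of PA control replicate 1 remained. The 3545 genes for OA became 6362 with only its 4 libraries in the fit, 783 with members thinned to 3000 UMIs, 1958 with at least 5 members per library (added after seeing the data), 2957 with DESeq2, and 994 to 1367 without 1 library, where the lone library is assumed to vary like the other groups. The 952 differences of effect became 359 without mesenchymal-gate cells, 1714 with edgeR's older spread estimate, 144 against double-gate cells, 1655 against hepatocyte-gate cells, and 115 to 357 without 1 library. The cause of these shifts was not tested. The 3 differences of PA effects became 2 to 3 without 1 PA library and 4 with at least 5 members, and the 65 for TGFB1 became 0, 1, 23 and 49 without 1 library, where EIF4EBP1 ran from -3.89 to 8.78. The 1 gene for PA became 4 with DESeq2 and 0 to 5 without 1 library, and the 0 for TGFB1 91 with DESeq2 and 0 to 4. OA control against untreated gave 0 to 1568 without 1 library. In the labels, same-numbered libraries share only a number. Correlations of their deviations were -0.0123 for TGFB1, 0.0605 for PA and 0.00815 for OA (2 pairs each). With so few libraries these values cannot decide whether same-numbered libraries were handled together. A replicate block gave 2724 genes for OA, 0 for PA and 0 for TGFB1. Of the named OA log2 fold changes, 92 called genes kept the call in 1192 values over the alternatives and lost it in 137, and 14 genes not called gained it in 21 and turned in 4: CHGA (-0.310, stricter gate), NEUROD1 (-0.519 with doublets removed, and -0.615 to 3.44 without 1 library) and REG4 (-1.48 to 0.784 without 1 library). LCN2's difference ran from -5.58 to 1.44 without 1 library, the latter without OA control replicate 2. Not run were the other filters, scalings, gates and thinnings for PA and TGFB1 genes and for differences of TGFB1 effects. The plan tested genes only where both groups kept 2 libraries with at least 20 members. At that minimum the PA control kept 1 library and TGFB1 kept 0. Leaving out PA control replicate 2 left no control for the difference of PA effects.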
